A study of Danio rerio with 4 samples.

Results

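*zic2b*, *foxn4*, and *insm1a* are transcription factor genes of retinal progenitors, and their values were taken by gene symbol from the 6 deposited lists of genes and transcripts. They are 3 of the 2543 genes in those lists. All samples were retinae of wild type zebrafish of 10 months, and total RNA of whole retina was sequenced from 4 libraries, 1 per condition. The conditions were retina at 12 hr post-injury (12 hpi), retina at 4 days post-injury (4 dpi), retina at 4 dpi from fish kept after injury in 10 μM cyclopamine, an inhibitor of the Shh receptor component Smo, and uninjured retina. The retina was injured with a needle. How many fish gave each library is not given in the sources used here. Because each condition had 1 library, no difference below has a replicate check or a test, a listing is the authors' call alone, and the number of reads behind each value is not known from these tables.

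After injury, the Müller glia (MG) of the zebrafish retina dedifferentiate and divide to give progenitors (MGPCs) that form new neurons, and transcription factors of developing retina are switched on again in this process. Zic2b is a zinc-finger protein of the Zic family, whose fingers are related to those of the Gli proteins that carry the Shh signal, and mutations of its human counterpart are known from holoprosencephaly. Foxn4 is a forkhead protein that in the mouse retina is needed for amacrine and horizontal cells. Insm1a is a zinc-finger repressor known from differentiating neural and endocrine progenitors, where it is tied to exit from the cell cycle.

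The coordinates in the authors' tables are on GRCz10, the build named in the submitters' processing notes. *zic2b* (ENSDARG00000037178) is at chr1:29027827-29056964 on the plus strand, with 2 annotated transcripts and 1 protein. *foxn4* (ENSDARG00000010591) is at chr5:18881684-18896698 on the minus strand, with 3 transcripts and 2 proteins. *insm1a* (ENSDARG00000091756) is at chr20:48675358-48677782 on the minus strand, with 2 transcripts and 2 proteins. No other listed gene overlapped them. In the RefSeq annotation of another assembly, GRCz12tu, *foxn4* and *insm1a* each overlap 1 long noncoding RNA gene, and *zic2b* overlaps none. Whether the libraries kept strand is not stated, so reads of such overlapping transcripts cannot be told apart from those of the gene.

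The study's oligos for the Gli sites of *zic2b* and *foxn4*, used on immunoprecipitated chromatin, and for the qPCR of *insm1a* are shown 5′ to 3′ because they are the designed sequences with which it assayed these genes. Capitals mark GGGTG on either strand, letters contained in the known Gli consensus.
zic2b Gli site pair, forward: attcttagatttgggaaacg
zic2b Gli site pair, reverse: gctatatggctatgagcaactg
foxn4 Gli site pair 1, forward: gaaaagatagatttgtgagGGGTGtac
foxn4 Gli site pair 1, reverse: ggagggccgaagcccacagttccaac
foxn4 Gli site pair 2, forward: ggggacaggggttGGGTGg
foxn4 Gli site pair 2, reverse: ccattaaaccaagctctaacg
insm1a qPCR, forward: ccaagaaagccaaagccatgcggaagc
insm1a qPCR, reverse: ttattgctttccgcgctctgcttgggtttg
The letters were in 2 of these 8 oligos, both of them *foxn4* forward primers, and in 12 of the 174 oligos of the study's list (6.9%). An oligo is only the end of the segment it amplifies, so these matches say nothing about the sequence between the primers.

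The 4 dpi tables answer how strongly the genes were expressed in the proliferative phase, in FPKM, which scales the fragments of a gene to its length and to the size of the library. All 3 genes were in the higher list at 4 dpi, as were 60.9% of the 1466 genes listed at 4 dpi. *zic2b* had 14.2 FPKM at 4 dpi, against 0.947 FPKM in uninjured retina, a 15.0-fold difference in level. *foxn4* had 4.87 FPKM at 4 dpi, against 0.453 FPKM in uninjured retina, a 10.8-fold difference. *insm1a* had 35.0 FPKM at 4 dpi, against 2.83 FPKM in uninjured retina, a 12.4-fold difference. The order of levels was the same in both libraries, *insm1a* above *zic2b* above *foxn4*, and with 1 library each it cannot be said which neighbours differ beyond replicate error. In a whole retina, more cells that express a gene and more RNA per cell cannot be told apart.

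**Figure D1:**
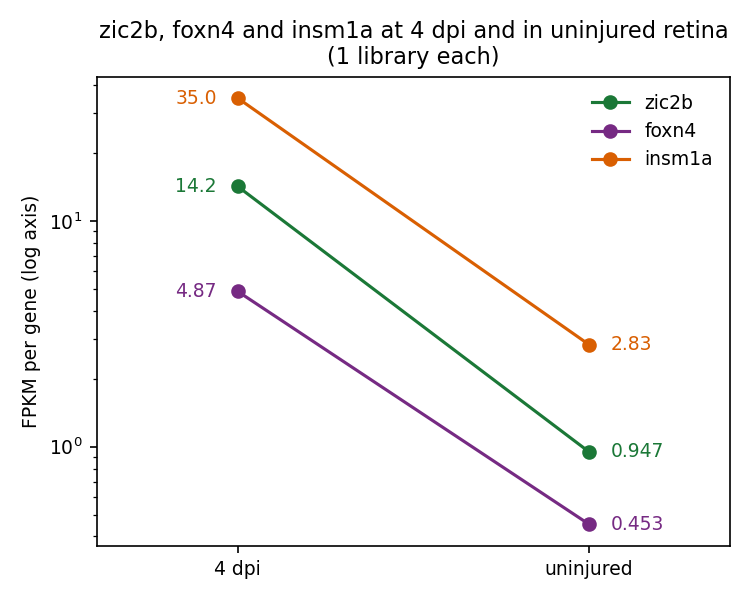
FPKM per gene (log axis) of *zic2b*, *foxn4*, and *insm1a* at 4 dpi and in uninjured retina, 1 library each, with lines joining the values of a gene. At 4 dpi the genes lie at 4.87 to 35.0 FPKM, against 0.453 to 2.83 FPKM in uninjured retina, in the same order.

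The genes differed more in level than in ratio. *insm1a* had 7.18 times the FPKM of *foxn4* at 4 dpi and 6.25 times in uninjured retina, and *zic2b* had 2.92 times the FPKM of *foxn4* at 4 dpi and 2.09 times in uninjured retina. The log2 ratio of 4 dpi over uninjured, computed with a pseudocount of 0.1 FPKM, was 3.77 for *zic2b*, 3.58 for *insm1a*, and 3.17 for *foxn4*. With a pseudocount of 1 FPKM the order changed, since the log2 ratio was then 3.23 for *insm1a*, 2.96 for *zic2b*, and 2.01 for *foxn4*. The median log2 ratio was 2.52 over the higher genes at 4 dpi with a value above 0 in uninjured retina. Of these 780 genes, 81.9% had a lower log2 ratio than *zic2b*, 78.8% a lower one than *insm1a*, and 70.8% a lower one than *foxn4*.

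At a like starting level the genes stand in different places. Of 120 genes listed as higher at 4 dpi with an uninjured FPKM within 1.5-fold of that of *zic2b*, itself included, *zic2b* had rank 28 by ratio, and the median ratio of these genes was 7.21. *insm1a* had rank 23 of 146 such genes, with a median ratio of 5.89. *foxn4* had rank 50 of 97, and its ratio of 10.8 was close to their median of 11.2. The smallest ratio listed in these 3 windows was larger where the uninjured level was lower, with 2.75 among genes near *insm1a*, 3.46 among those near *zic2b*, and 4.64 among those near *foxn4*.

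The genes were then placed among transcription factors. Of the 154 transcription factor, co-factor, and chromatin remodeling genes that the study lists, 50 were in the higher list at 4 dpi. The study drew that list from these libraries, so it is not independent of them. By FPKM at 4 dpi, *insm1a* had rank 14 of the 50, *zic2b* rank 25, and *foxn4* rank 45. By FPKM in uninjured retina, they had ranks 25, 39, and 45. *insm1a* lay between *nr2e3*, a nuclear receptor of rods, with 37.2 FPKM at 4 dpi and the Myc family gene *myclb* with 30.1 FPKM. *zic2b* lay between the pseudokinase gene *trib3* with 15.2 FPKM and the bZIP factor gene *cebpb* with 14.1 FPKM. *foxn4* lay between the zinc-finger gene *sall1b* with 4.90 FPKM and the cell-cycle repressor gene *e2f7* with 3.21 FPKM. By level the genes were thus spread over the listed transcription factors, with *foxn4* near the low end.

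By ratio they stood higher than by level. *zic2b* and *foxn4* started low, at ranks 39 and 45 of 50 in uninjured retina. In the windows of like starting level above, median ratios were larger where that level was lower, so these ranks are not among genes of like level. Of the 48 transcription factor genes with a value above 0 in uninjured retina, *zic2b* had rank 6, *insm1a* rank 8, and *foxn4* rank 10, and the median log2 ratio was 2.26. *mybl2b*, a cell-cycle gene of the Myb family, had the highest log2 ratio, 4.57, followed by 4.33 for *olig2*, a bHLH gene of neural progenitors, and 4.31 for the Myc family gene *mych*. *zic2b* lay between the AP-1 gene *jun* (3.85) and the progenitor gene *sox11b* (3.60). *insm1a* lay between *sox11b* and *atoh7* (3.19), the bHLH gene needed for ganglion cells, and *foxn4* lay between *atoh7* and *e2f7* (2.96). With a pseudocount of 1 FPKM, *foxn4* had rank 18 and *insm1a* rank 5. Among genes of like starting level, the ratio of *foxn4* was close to the median, as given above. The remaining 2 transcription factor genes, *pitx3* and *sox21b*, were listed at 0 in uninjured retina and have no ratio.

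**Figure D2:**
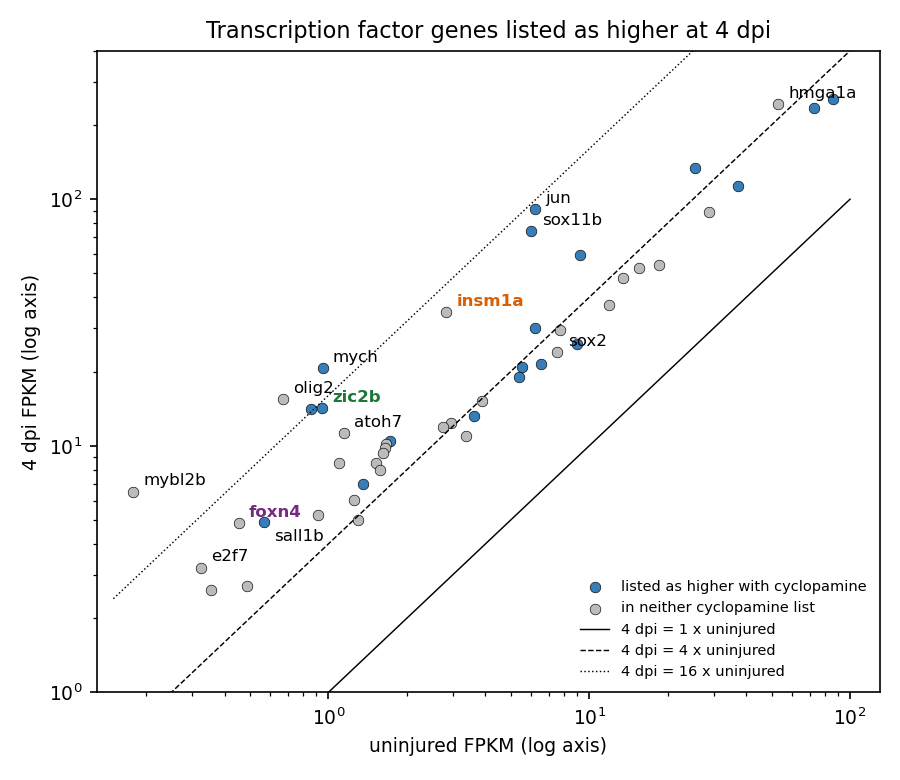
FPKM at 4 dpi (vertical, log axis) against FPKM in uninjured retina (horizontal, log axis) for the 48 transcription factor genes listed as higher at 4 dpi with a value above 0 in uninjured retina, with lines of equal ratio. Blue points were listed as higher with cyclopamine and gray points were in neither cyclopamine list. *zic2b* (blue), *insm1a* (gray), and *foxn4* (gray) lie between the lines of 4 and 16 times the uninjured value.

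**Figure D3:**
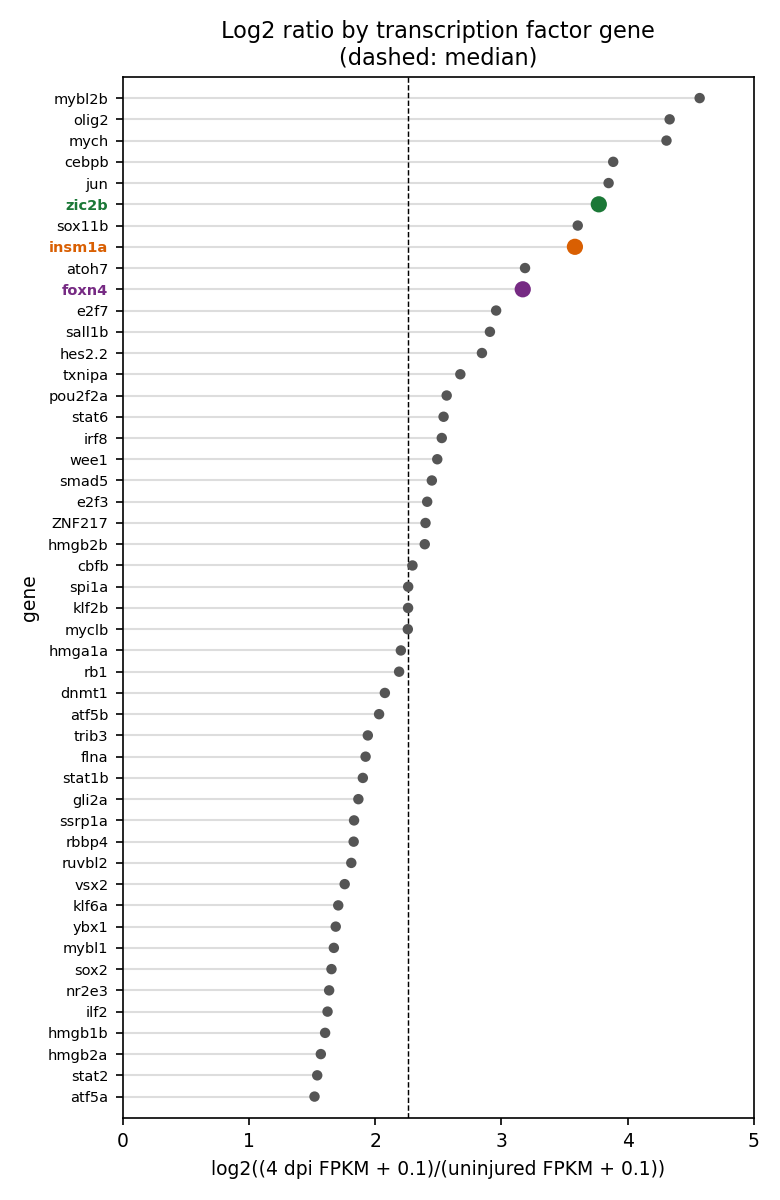
Log2 ratio of 4 dpi over uninjured FPKM (pseudocount 0.1) of the same 48 genes in descending order, with a dashed line at the median of 2.26. *zic2b*, *insm1a*, and *foxn4* are at ranks 6, 8, and 10.

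A list of 53 transcription factors and regulators of retinal progenitors was set beside them. This list and the gene lists below were chosen with earlier results of these data known, so their counts are not independent of the data. Of the 53 genes, 12 were listed as higher at 4 dpi and 0 as lower, while 2.76% of 29201 annotated gene identifiers were listed as higher. The number of genes the authors tested is not known, so this share is only a yardstick. It counts 806 identifiers, fewer than the 893 higher genes, so it is somewhat low. The shares of annotated identifiers at 12 hpi and with cyclopamine also count fewer than the listed genes. The 12 include the Myb family genes *mybl1* and *mybl2b*, the E2F family genes *e2f3* and *e2f7*, and the chromatin protein gene *hmga1a*. Such genes are not particular to retinal progenitors, so the count, the median, and the ranks are not of progenitor genes alone. The median log2 ratio of the 11 genes above 0 in uninjured retina was 2.85. In these 11 genes together with *zic2b*, *insm1a*, and *foxn4*, the 3 genes had ranks 3, 5, and 7 of 14 by log2 ratio. *olig2* had 15.4 FPKM at 4 dpi and 0.671 FPKM in uninjured retina, values close to those of *zic2b*. *atoh7* had 11.3 FPKM at 4 dpi and 1.15 FPKM in uninjured retina. *sox11b* had 74.1 FPKM at 4 dpi and 6.0 FPKM in uninjured retina. *sox2*, which MG of the intact retina also express, had 23.9 FPKM at 4 dpi, against 7.54 FPKM in uninjured retina, and its log2 ratio of 1.65 had rank 14 of 14.

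Relatives of these genes were looked up in the 4 dpi lists, which hold 2.76% of the annotated identifiers as higher and 1.78% as lower. Of the 7 Zic genes, *zic2b* was the only one listed at 4 dpi, and of the 3 Insm genes, *insm1a* was the only one. Of 39 Fox genes, *foxn4* was listed as higher and 3 as lower at 4 dpi. The paralog *foxn3* had 5.92 FPKM at 4 dpi, against 20.1 FPKM in uninjured retina. *foxj3* had 4.62 FPKM at 4 dpi, against 16.8 FPKM in uninjured retina, and *foxo1a* had 4.63 FPKM at 4 dpi, against 33.2 FPKM in uninjured retina. A gene that is absent from the lists has no value here, and its level is not known.

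Notch signaling keeps progenitors from differentiating. Of 34 genes of the Notch pathway, 6 were listed as higher at 4 dpi and 0 as lower. Of the annotated identifiers, 2.76% were listed as higher. The 6 Notch genes had a median log2 ratio of 3.97, beside 2.52 over the higher genes with a value above 0 in uninjured retina. They had 0.181 to 1.80 FPKM in uninjured retina. In the windows of like starting level above, median ratios were larger where that level was lower. The medians of 3.97 and 2.52 are thus not of genes of like level. The ligand genes *dla*, *dlb*, *dlc*, and *dld* had 6.45 to 10.3 FPKM at 4 dpi, against 0.181 to 1.36 FPKM in uninjured retina. The receptor gene *notch1a* had 9.70 FPKM at 4 dpi, against 1.80 FPKM in uninjured retina, and the target gene *her4.2* had 7.62 FPKM at 4 dpi, against 0.286 FPKM in uninjured retina. Of 23 genes of the Shh pathway, 2 were listed, both as higher. Smo is the membrane protein that cyclopamine binds, and *smo* had 4.78 FPKM at 4 dpi, against 1.13 FPKM in uninjured retina. Gli2a is a transcription factor of the pathway, and *gli2a* had 5.01 FPKM at 4 dpi, against 1.3 FPKM in uninjured retina. Their log2 ratios of 1.99 and 1.87 were below those of *zic2b*, *foxn4*, and *insm1a*. The ligand, Patched, and other Gli genes of that list were in none of the lists and have no value here.

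Genes of dividing cells and of other cell types were also listed at 4 dpi, where 2.76% of the annotated identifiers were listed as higher. Of 46 proliferation genes, 18 were in the higher list and 0 in the lower one, with log2 ratios of 2.08 to 5.75, and *mki67* had 23.6 FPKM at 4 dpi, against 0.339 FPKM in uninjured retina. Of 18 genes of cell-cycle exit, 2 were listed as higher, *rb1* and *ccng1*, with log2 ratios of 2.19 and 1.42. The 4 listed of 15 MG markers summed to 3482 FPKM at 4 dpi, against 311.5 FPKM in uninjured retina. The 11 listed of 25 microglia markers summed to 2498 FPKM at 4 dpi, against 300.8 FPKM in uninjured retina, and *apoeb* is in both of these lists. *apoeb* alone had 2111 FPKM at 4 dpi, against 233.6 FPKM in uninjured retina. Without it, the 3 other MG markers summed to 1371 FPKM at 4 dpi, against 77.9 FPKM in uninjured retina. Most of that was *fabp7a*, with 1191 FPKM at 4 dpi, against 52.0 FPKM in uninjured retina. The 10 other microglia markers summed to 386.9 FPKM at 4 dpi, against 67.2 FPKM in uninjured retina. The 8 listed of 32 lens genes summed to 218.1 FPKM at 4 dpi, against 4.38 FPKM in uninjured retina, where 5 of them were listed at 0. All listed MG, microglia, and lens genes were in the higher list. Sums over listed genes alone were therefore bound to be higher at 4 dpi, and they do not measure these cell types. Photoreceptor and bipolar cell genes were present, with *guca1d* at 48.4 FPKM at 4 dpi and 164.9 FPKM in uninjured retina and *trpm1b* at 13.2 FPKM at 4 dpi and 48.3 FPKM in uninjured retina. None of the 17 amacrine and horizontal cell genes was listed at 4 dpi. The part of these cell types in the levels of *zic2b*, *foxn4*, and *insm1a* was not tested. *actb1*, the gene of the study's qPCR reference, was itself 6.08-fold higher at 4 dpi, and relative to it the log2 ratio was 1.17 for *zic2b*, 0.98 for *insm1a*, and 0.57 for *foxn4*.

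The genes with the most similar pair of values were found by distance on the log2(FPKM + 0.1) scale over the 4 dpi and uninjured libraries. For *zic2b* they were *cebpb*, *crabp2a*, a retinoic acid binding protein gene, and *col1a2*, a collagen gene, at distances of 0.12 to 0.17. For *foxn4* they were *nrros*, *plek*, and the spindle gene *spdl1*, at distances of 0.045 to 0.11. For *insm1a* they were the vault protein gene *mvp*, the ribosomal protein gene *rps27.2*, and *CABZ01073795.1*, at distances of 0.11 to 0.26. *rps27.2* and *insm1a* had the same uninjured value to all digits given, 2.82686 FPKM. Of 1353 listed genes above 0 in uninjured retina, 10 share their value with another listed gene, and the reason was not tested. A pattern of 2 values is shared by many unrelated genes, and *cebpb*, *nrros*, and *mvp* were also in the higher list at 12 hpi.

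At 12 hpi, none of the 3 genes was in either list, while 1.16% of the annotated identifiers were listed as higher. The lists held 386 genes as higher and 222 as lower. Of the 50 transcription factor genes listed as higher at 4 dpi, which include these 3 genes, 13 were also listed as higher at 12 hpi. Beside either share, the absence of 3 genes says little about them. None of the 53 retinal progenitor genes, 46 proliferation genes, or 23 Shh genes was listed at 12 hpi, and of the 34 Notch genes only *hey1* was, as lower. Beside a share of 1.16%, absence of lists of this size also says little. Of 24 genes of the early injury response, 13 were listed as higher at 12 hpi. These tables hold transcripts, and they give no value for a gene that is not listed. To show what was listed near these genes, transcripts were taken by their own uninjured FPKM, set against the uninjured FPKM of the whole gene. The 2 measures can differ, as *klf6a* had 4.64 FPKM in uninjured retina as a transcript and 6.52 FPKM as a gene. In this way, 50 transcripts listed as higher at 12 hpi lay within 1.5-fold of the uninjured FPKM of *zic2b*, and the smallest of their ratios was 4.36. The smallest ratio was 4.97 among 20 transcripts near *foxn4* and 3.18 among 48 near *insm1a*. The ratios that the genes reached at 4 dpi, 15.0, 10.8, and 12.4, were met or passed by 13, 9, and 5 of these transcripts at 12 hpi.

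With cyclopamine, the lists hold symbols without values, so levels with and without the drug could not be compared. *zic2b* was listed as higher at 4 dpi with cyclopamine, and *foxn4* and *insm1a* were in neither cyclopamine list. That is 1 of 3 genes, while 39.6% of the 893 higher genes at 4 dpi, and 2.04% of the annotated identifiers, were listed as higher with cyclopamine. The drug and 4 dpi lists share their uninjured library. Among genes within 2-fold of a gene in both FPKM at 4 dpi and ratio, 50 of 95 near *zic2b*, 48 of 150 near *foxn4*, and 46 of 79 near *insm1a* were listed as higher with cyclopamine. The lists alone do not measure how 4 dpi with cyclopamine differs from 4 dpi.

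The other lists had their own counts with cyclopamine, where 2.04% of the annotated identifiers were listed as higher and 2.26% as lower. Of the 53 retinal progenitor genes, *sox11b* was listed as higher and 0 as lower. Of the Notch genes, 0 were listed as higher and *her12* as lower, and of the Shh genes none was listed. Of the proliferation genes, 9 were in the higher list and 0 in the lower one. Of the early injury response genes, 11 were higher and 1 lower, and of the microglia markers 7 were higher and 1 lower. Of the MG markers 5 and of the lens genes 10 were higher, with 0 lower in either list. Among markers of neurons, 1 of 23 cone genes was higher and 4 were lower, 2 of 21 rod genes were lower, and 2 of 14 bipolar cell genes were lower. Of the 14 ganglion cell genes and the 17 amacrine and horizontal cell genes, 0 were listed. Of 19 genes of neuron maturation, 4 were higher and 1 was lower with cyclopamine. At 4 dpi without the drug, 3 of the 19 were higher and 1 was lower. The 3 higher ones, *gap43*, *tuba1a*, and *tubb5*, were also listed as higher with cyclopamine. The lower one was *sv2a*, with 13.3 FPKM at 4 dpi, against 55.1 FPKM in uninjured retina, and it was in neither cyclopamine list. The paper marks MGPCs with a *tuba1a* reporter, so counts of this list are not of maturing neurons alone. All of these counts are of listed genes, and the cyclopamine lists give no levels to set beside them.

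**Figure D4:**
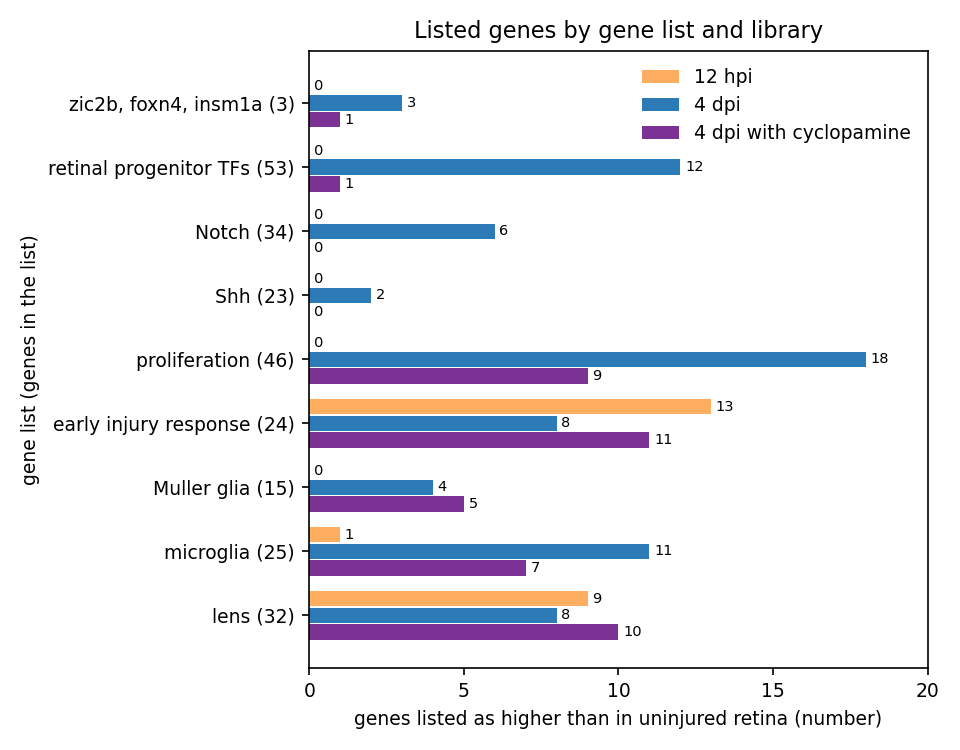
Number of genes of each list (its size in parentheses) in the higher lists of 12 hpi, 4 dpi, and 4 dpi plus cyclopamine. Of *zic2b*, *foxn4*, and *insm1a*, 0 were listed at 12 hpi, 3 at 4 dpi, and 1 with cyclopamine, and of the retinal progenitor genes 0, 12, and 1. Of the annotated identifiers, 1.16%, 2.76%, and 2.04% were in these higher lists. Beside such small shares, counts of 0 or 1 say little.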

How the data were processed

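Whole-retina RNA-seq of 4 libraries was used. The submitters' processing notes name Bowtie2 2.2.2, TopHat2 2.1.0, Cufflinks 2.2.1, and GRCz10, without their roles. The authors deposited FPKM values of called features only: the 4 dpi tables hold genes, the 12 hpi tables hold transcripts, and both also give uninjured retina. Every listed feature had at least 1.005 FPKM in its higher library. For cyclopamine the authors deposited identifiers and symbols, listed here under the unit other, without values. Their fold changes, test statistics, p-values, and q-values were not used. Because the lists are already filtered, shares over listed genes do not describe all genes.

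Ratios were computed with Python 3.11.15, pandas 2.3.3, and numpy 2.4.6 as log2((4 dpi + 0.1)/(uninjured + 0.1)), and the code was tested on simulated data. Members were matched by symbol and lists of transcription factors by Ensembl identifier. The members and gene lists were chosen with earlier results of these data known. Named genes were the members, their neighbours in rank, the 3 nearest genes of each, and listed genes of the Zic, Fox, Insm, retinal progenitor, Notch, and Shh lists, with examples of the others. Alternatives were counted as changing a value beyond a factor of 1.5. The planned comparison of cyclopamine with 4 dpi levels could not be made. Depth is unknown, so no intervals are given. Not every listed gene is reported here by name.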

Additional observations from a re-analysis of the deposited data

How the results depend on the processing

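No alternative reversed a log2 ratio, although the same pseudocount in both libraries cannot reverse one by construction. With a pseudocount of 1 FPKM the log2 ratio was 2.96 for *zic2b* and 2.01 for *foxn4*, and the rank by ratio was 18 for *foxn4* and 5 for *insm1a*. Scaled to *actb1*, the log2 ratio was 1.17 for *zic2b*, 0.57 for *foxn4*, and 0.98 for *insm1a*. Centred on the median of all listed genes of both directions, which was 1.95, it was 1.83, 1.22, and 1.64 for the same genes. By construction, a larger pseudocount lowers such ratios most where values are low, and scaling or centring takes the same amount from every gene. That amount comes from the data, since *actb1* was itself 6.08-fold higher at 4 dpi. The size of each log2 ratio therefore depends on the scaling used. Among transcription factor genes with at least 1 FPKM in both libraries, *insm1a* had rank 3 by ratio, since genes with low uninjured values were left out. Among genes chosen by symbol families, *insm1a* had rank 9 by level at 4 dpi, since other genes were counted. *zic2b* and *foxn4* have less than 1 FPKM in uninjured retina and give no value under that minimum. Counting the genes listed at 0 and using only the 4 dpi section of the study's list, both chosen after the data were seen, moved no rank by more than 1.5-fold. No paired analysis was possible because there is a single library of each condition. No replicate could be left out, and the unknown depth matters most for *foxn4*, the gene with the lowest values.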
